A study of Mus musculus with 4 samples.

Results

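The genes described here are the subunits of the proteasome, found by name: every row of the count table called *Psma*, *Psmb*, *Psmc*, *Psmd* or *Psme* followed by digits only, without *Psmb8*, *Psmb9* and *Psmb10*, the catalytic subunits of the immunoproteasome. This rule took 40 of the 46095 rows. Bulk RNA sequencing of the stomach compared 2 WT mice with 2 *Atp4b-cre; Myc OE* mice, called MYC-KI in the labels, all 12 weeks old and on a C57BL/6 background. The study's methods give the transgenic genotype as *Atp4b-cre; Myc fl/+*, in which Cre driven by the *Atp4b* promoter turns on extra *c-Myc* in parietal cells and their lineage, and the control as *Myc fl/fl*, so that the *Myc fl* allele is in both genotypes; its results call the controls littermates and WT. The labels number the samples 1 and 2 in each genotype and do not say that each is a separate animal, and the series record speaks of triplicates where 2 samples a genotype were given, so the p-values measure only the spread between these samples.

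The proteasome is the protease that degrades proteins tagged with ubiquitin. Its core particle is a barrel of stacked rings, with outer rings of alpha subunits (*Psma* genes) that gate the entrance and inner rings of beta subunits (*Psmb* genes), some of which carry the catalytic sites. A regulatory particle of ATPases (*Psmc* genes) and non-ATPase subunits (most *Psmd* genes) binds the ubiquitin chain, removes it, and unfolds the substrate into the barrel, while alternative caps (*Psme* genes) can take its place. The stomach mucosa makes large amounts of secreted enzymes and mucins, and its parietal cells secrete acid.

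The name "constitutive" did not hold for every row that the rule took. *Psma8*, an alpha subunit known from testis, had 8 and 3 counts in the WT samples against 0 and 2 in the MYC-KI samples. *Psmb11*, a beta subunit known from the thymus, had 3 and 0 counts in WT against 0 and 2 in MYC-KI. Both failed the filter on low counts, which left 38 members tested, and *Psmb11* was at or under 3 counts in every sample. The rule also took *Psme1* and *Psme2*, caps whose expression is induced by interferon gamma, and *Psmd5*, *Psmd9* and *Psmd10*, chaperones that help to assemble the regulatory particle and are not part of the finished complex.

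Each member has a pair of readings in the deposited table, depending on the row order. The counts in the MYC-KI columns, taken in row order, were given to the names sorted by character code, and for every member this moved the MYC-KI counts by 396 rows. Pearson's r between the genotypes in mean log2(count + 1), over the 40 member rows and thus across genes that are not replicates, was 0.994 at this assignment. Shifting the MYC-KI counts by 1 to 5 rows in either direction gave an r between -0.18 and 0.34, and the order as deposited gave -0.18. As deposited, the name *Psma2* has 2990 and 2147 counts in WT against 0 and 0 in MYC-KI, where the assigned counts are 3068 and 3968. Values below use the assigned counts unless the deposited order is named.

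The samples held 36152857 and 30260305 counts in WT against 31350412 and 41463647 in MYC-KI. WT replicate 2 stood apart in sex-linked genes, with 17846 counts of *Xist* and 5 of the Y-linked *Ddx3y*, against 85 and 1861 in WT replicate 1. In MYC-KI replicates 1 and 2, *Xist* had 113 and 201 counts and *Ddx3y* had 1941 and 2623. The labels do not give the sex of the mice.

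None of the 38 tested members was called higher or lower in MYC-KI mice, where a call needed an adjusted p under 0.05 in edgeR's quasi-likelihood test (Benjamini-Hochberg over all genes) and a change of more than 1.5-fold. Over all 17643 tested genes, 996 (5.65%) were called higher and 896 (5.08%) lower by the same rule. The member values were small and mostly on the side of MYC-KI: 30 of 38 had a fitted log2 fold change above 0 (78.9%, against 50.9% of all tested genes), and their median was 0.12 against 0.01 over all tested genes. At the adjusted p alone, 2 members were higher in MYC-KI and 0 were lower, against 1232 genes (6.98%) higher and 1042 (5.91%) lower among all tested. The 2 members make 5.26% of those tested, near the share of all genes, and are *Psmd7* and *Psma5*.

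At an unadjusted p under 0.05, edgeR had 8 of 38 members higher and 0 lower, against 17.7% and 16.4% of all tested genes. DESeq2 called 0 members with the fold threshold, against 7.98% higher and 9.21% lower of the 18755 genes that it gave an adjusted p. At the DESeq2 adjusted p alone 4 members were higher, adding *Psmd3* and *Psme3*, against 11.2% of those genes. Without MYC-KI replicate 1 the edgeR test called 1 member higher, *Psmb5*, against 4.2% of all genes tested there, and without either WT replicate it called no gene at all, the lone sample being taken to vary like the other genotype. In 24 of 38 members both MYC-KI samples lay above both WT samples (63.2%, against 33.3% of all tested genes), and in 3 both lay below (7.89%, against 31.5%).

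**Figure D1:**
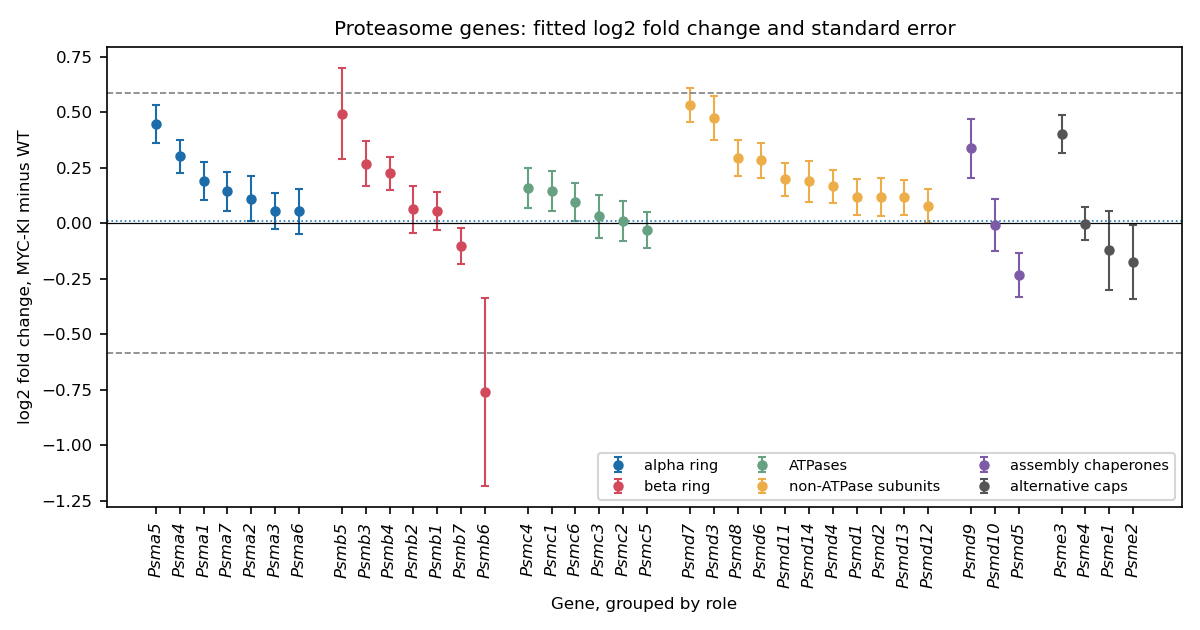
Fitted log2 fold change of MYC-KI minus WT for the 38 tested proteasome genes on the y axis, grouped on the x axis by role, with bars of 1 standard error. Dashed lines mark the threshold of 1.5-fold in either direction and the dotted line the median of all tested genes, 0.01; *Psmb6* at -0.76 is the point past a dashed line, with the widest error, and the other members lie between -0.23 and 0.53.

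The members differed less from each other than all tested genes did. The SD of the members' log2 fold changes was 0.23, against 1.01 over all tested genes. It was above the median standard error of a member, 0.0862. In 25 of 38 the fitted value lay within 0.2 of 0 on the log2 scale. In bulk samples, fewer cells of a type and less RNA per cell cannot be told apart, and this holds for every level given here.

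The scaling of the samples mattered for the size of these values. TMM scaling factors were 0.929 and 0.923 in WT and 1.08 and 1.08 in MYC-KI. With library size and no scaling factors, the median of all tested genes moved by 0.22 on the log2 scale, all calls split into 2272 higher and 739 lower (75.5% higher, against 52.6% with TMM), and 36 of 38 members lay above 0. The change of scaling shifts all genes alike, so it leaves the members' median at 0.11 above that of all genes, and 29 of 38 members above it. As a share of all counts, without scaling factors, the 40 members made up 0.311% and 0.291% in WT and 0.390% and 0.393% in MYC-KI.

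The non-ATPase subunits of the regulatory particle had the highest median of the roles, 0.19 over 11 genes, and in all 11 both MYC-KI samples lay above both WT samples, against 33.3% of all tested genes. *Psmd7*, which pairs with the deubiquitinase *Psmd14* in the lid, had 2586 and 2020 counts in WT against 3649 and 4847 in MYC-KI. In counts per 1000000 after TMM scaling (CPM) these were 77.1 and 72.4 in WT and 107.6 and 108.5 in MYC-KI. The genotypes did not overlap, and the replicates of each were at most 1.06-fold apart. The log2 fold change was 0.53 with a standard error of 0.0785, or 1.45-fold, with an edgeR adjusted p of 0.0309. It stayed under the fold threshold. Without MYC-KI replicate 1 or 2 the log2 fold change was 0.54 or 0.53 with an edgeR adjusted p of 0.0494 or 0.0405, and without WT replicate 1 or 2, where no gene passed, it was 0.577 or 0.485.

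*Psmd3*, a scaffold subunit of the lid, had 4248 and 3155 counts in WT against 5845 and 7164 in MYC-KI, or 126.6 and 113.1 CPM against 172.3 and 160.4. Its log2 fold change of 0.47 (standard error 0.0982) had an edgeR adjusted p of 0.0511. The genotypes did not overlap, yet the value did not pass. *Psmd8* and *Psmd6*, further lid subunits, had log2 fold changes of 0.29 and 0.28 with edgeR adjusted p of 0.0871 and 0.0854. The other 7 of this role lay between 0.08 and 0.20: *Psmd11* 0.20, *Psmd14* 0.19, the ubiquitin receptor *Psmd4* 0.17, the large base subunits *Psmd1* and *Psmd2* 0.12 each, *Psmd13* 0.12 and *Psmd12* 0.08. Without WT replicate 2, *Psmd1*, *Psmd13* and *Psmd12* were at 0.065, 0.067 and 0.03, and without MYC-KI replicate 2, *Psmd2* and *Psmd14* were at 0.056 and 0.115, so the order among these small values depended on the samples taken.

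The ATPases that form the unfolding ring were nearly level between the genotypes, with a median of 0.06 over 6 genes. *Psmc4* and *Psmc1* had the highest values, 0.16 and 0.14, which were 0.075 and 0.072 without WT replicate 2, and *Psmc5* the lowest, -0.03. *Psmc6* was at 0.10, *Psmc3* at 0.03 and *Psmc2* at 0.01. In 3 of the 6 both MYC-KI samples lay above both WT samples, against 33.3% of all tested genes, and in the other 3 the genotypes overlapped. The lowest edgeR adjusted p of the 6 was 0.292, and the signs of *Psmc2*, *Psmc3* and *Psmc5* turned under at least 1 other setting.

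The alpha ring had a median of 0.14 over 7 tested genes, all fitted above 0. *Psma5* had 1534 and 1396 counts in WT against 2210 and 2911 in MYC-KI. After scaling these were 45.71 and 50.04 CPM in WT and 65.16 and 65.17 CPM in MYC-KI, so that the MYC-KI samples were alike and both above WT. Its log2 fold change was 0.44 with a standard error of 0.0854, or 1.36-fold, and an edgeR adjusted p of 0.0454. This value was close to the limit: with the size factors of DESeq2 the edgeR adjusted p was 0.0501, and without MYC-KI replicate 1 or 2 it was 0.0823 or 0.0705, with log2 fold changes of 0.446 each.

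*Psma4* was the next alpha subunit, with 69.6 and 67.4 CPM in WT, 84.6 and 84.1 in MYC-KI, a log2 fold change of 0.30 and an edgeR adjusted p of 0.0676. *Psma1* (0.19), *Psma7* (0.14), *Psma2* (0.11), *Psma3* (0.05) and *Psma6* (0.05) followed. The genotypes overlapped in *Psma2* and *Psma6*, and the sign of *Psma6* turned without WT replicate 2, at -0.05.

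The beta ring held the widest range of values, from -0.76 to 0.49, with a median of 0.06 over 7 tested genes. The low end was *Psmb6*, a row with few counts, and the next lowest was *Psmb7* at -0.10. *Psmb5*, the subunit with the chymotrypsin-like site and the target of bortezomib, had 1444 and 1316 counts in WT against 1745 and 3369 in MYC-KI, or 43.0 and 47.2 CPM against 51.5 and 75.4. MYC-KI replicate 2 was 1.47 times replicate 1, the widest MYC-KI pair among the members. The log2 fold change of 0.49 therefore had a standard error of 0.206 and an edgeR adjusted p of 0.18. Without MYC-KI replicate 1 it was 0.74 with an edgeR adjusted p of 0.0345, which is a call, and without MYC-KI replicate 2 it was 0.19 with an edgeR adjusted p of 0.321, which is not. MYC-KI replicate 2 also had the highest summed level of the 7 squamous markers, 3033 CPM against 700.7 in MYC-KI replicate 1, and their part in *Psmb5* was not tested. An annotated microRNA gene, *Mir686*, lies over 12.1% of the exon bases of *Psmb5*.

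*Psmb6*, which carries the caspase-like site, was the lowest member, with 48 and 61 counts in WT against 42 and 40 in MYC-KI. The log2 fold change of -0.76 had a standard error of 0.424, the widest of the members, and an edgeR adjusted p of 0.283. Per kilobase of transcript its level was 2.27 CPM in WT and 1.34 in MYC-KI, while the other 6 tested beta genes lay between 50.2 and 104.9 in WT and between 66.4 and 122.5 in MYC-KI. The beta subunits are known to share the ring in equal number, whereas the reads counted to *Psmb6* were far fewer than those of its tested partners in all 4 samples. No other annotated exon lies over those of *Psmb6*, and its pseudogene rows had at most 1 count in any sample.

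Of the other beta genes, *Psmb3* had a log2 fold change of 0.27 and *Psmb4* of 0.22, with edgeR adjusted p of 0.151 and 0.12. *Psmb2* and *Psmb1* had 0.06 each. *Psmb7*, which carries the trypsin-like site, had 103.1 and 97.1 CPM in WT and 91.7 and 94.7 in MYC-KI, with a log2 fold change of -0.10 that did not pass (edgeR adjusted p of 0.423). It lay below WT in both MYC-KI samples under TMM, and with library size alone, which moved the median of all genes by 0.22, it was at 0.12. The 3 catalytic beta genes thus had values of 0.49, -0.10 and -0.76, and none of them passed the test.

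**Figure D2:**
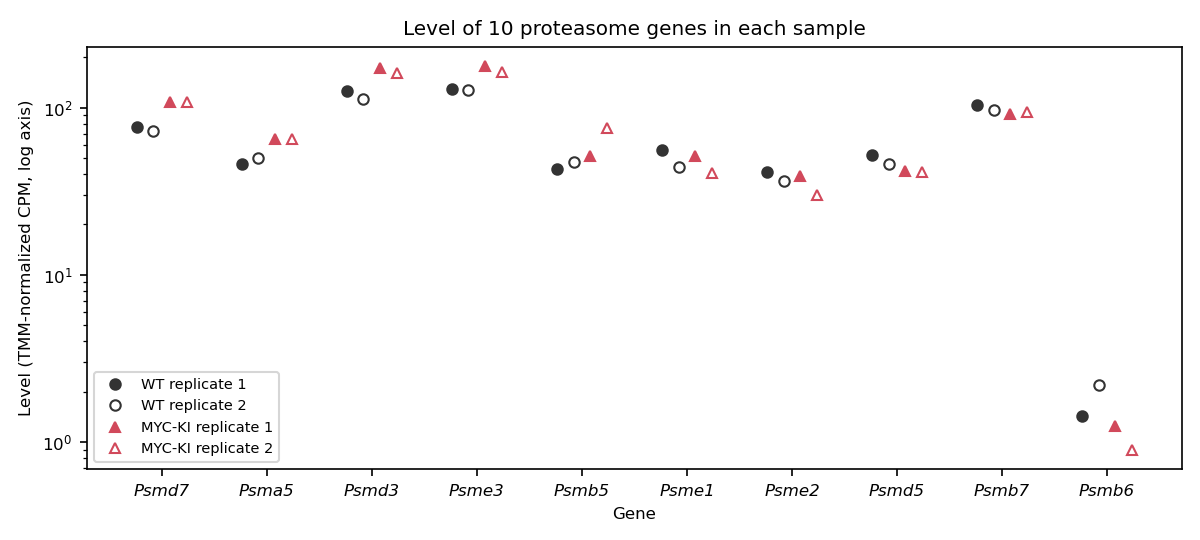
Level of 10 proteasome genes in each of the 4 samples, in TMM-normalized CPM on a log axis, with circles for WT and triangles for MYC-KI and open symbols for replicate 2. *Psmd7* lies at 72.4 to 77.1 in WT and 107.6 to 108.5 in MYC-KI, *Psmb5* is raised in MYC-KI replicate 2 at 75.4, and *Psmb6* stays at or below 2.19 in every sample.

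The alternative caps did not move as a group, with a median of -0.06 over 4 genes. *Psme3*, the cap of the nuclear proteasome, had 4346 and 3557 counts in WT against 6003 and 7267 in MYC-KI, or 129.5 and 127.5 CPM against 177.0 and 162.7. Both MYC-KI samples were above WT, with a log2 fold change of 0.40 (standard error 0.0845) and an edgeR adjusted p of 0.0522. *Psme4*, a large cap known from testis, was level at 171.2 and 174.8 CPM in WT and 175.1 and 170.4 in MYC-KI.

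*Psme1* and *Psme2*, which together form the cap that interferon gamma induces, differed more between replicates than between genotypes. *Psme1* had 55.5 and 44.2 CPM in WT and 51.2 and 40.5 in MYC-KI, and *Psme2* had 41.4 and 36.2 in WT and 38.8 and 29.9 in MYC-KI. In both genes replicate 2 was the lower sample of each genotype, and the genotypes overlapped. Their log2 fold changes were -0.12 and -0.18, with edgeR adjusted p of 0.675 and 0.513, and with library size alone, which shifts all genes alike, they were at 0.10 and 0.05. The summed level of the 9 immunoproteasome and antigen loading genes was also lower in replicate 2 of each genotype, at 421.9 and 382.2 CPM in WT and 473.0 and 228.3 in MYC-KI, and most of it was *B2m*. *Irf1* of this list went the other way in the WT pair, at 33.1 and 43.8 CPM, and the part of these genes in the values of *Psme1* and *Psme2* was not tested. The near-identical copy *Psme2b* had 564 and 377 counts in WT against 500 and 470 in MYC-KI, so the share of reads between it and *Psme2* is uncertain.

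The chaperones that carry a *Psmd* name differed in direction. *Psmd9* had 666 and 516 counts in WT against 872 and 1015 in MYC-KI, with a log2 fold change of 0.34 (standard error 0.132) and an edgeR adjusted p of 0.16. *Psmd5* had 1747 and 1279 counts in WT against 1421 and 1847 in MYC-KI, which after scaling were 52.1 and 45.9 CPM against 41.9 and 41.4. Its log2 fold change of -0.23 (standard error 0.1) had an edgeR adjusted p of 0.186, the lowest fold change after *Psmb6*. It was -0.012 with library size alone and -0.14 without WT replicate 1. *Psmd10* stayed at 19.1 to 19.6 CPM in all 4 samples. Exons of *Gm26745* lie over 25.5% of the exon bases of *Psmd9*. Besides *Psmb5*, other genes also lie over *Psmb7* (11.8%, *Nek6*), *Psmd13* (10.1%, *Sirt3*), *Psmc3* (8.25%) and *Psmd1* (7.61%). The shares were 4.81% for *Psma4*, 4.54% for *Psma5*, 0.634% for *Psme1* and 0.342% for *Psmd3*. A strand setting of the counting is not given in the sources used here, so reads of these overlaps cannot be told apart.

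Summed by role, the non-ATPase subunits had 1158 ± 36.9 CPM in WT and 1353 ± 17.5 in MYC-KI (SD, n = 2), and the alpha ring 520.5 ± 25.7 and 587.6 ± 3.35. The beta ring had 515.0 ± 19.9 and 567.6 ± 28.4, and the ATPases 584.0 ± 40.3 and 611.1 ± 17.1. The ratio of MYC-KI to WT was thus 1.17 for the non-ATPase subunits, 1.13 for the alpha ring, 1.10 for the beta ring and 1.05 for the ATPases. The chaperones named *Psmd* had 87.6 ± 5.07 and 85.2 ± 2.19, and the caps 390.2 ± 10.5 and 422.8 ± 27.3. The samples of both genotypes overlapped in the ATPases and the chaperones and did not in the other 4 roles.

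**Figure D3:**
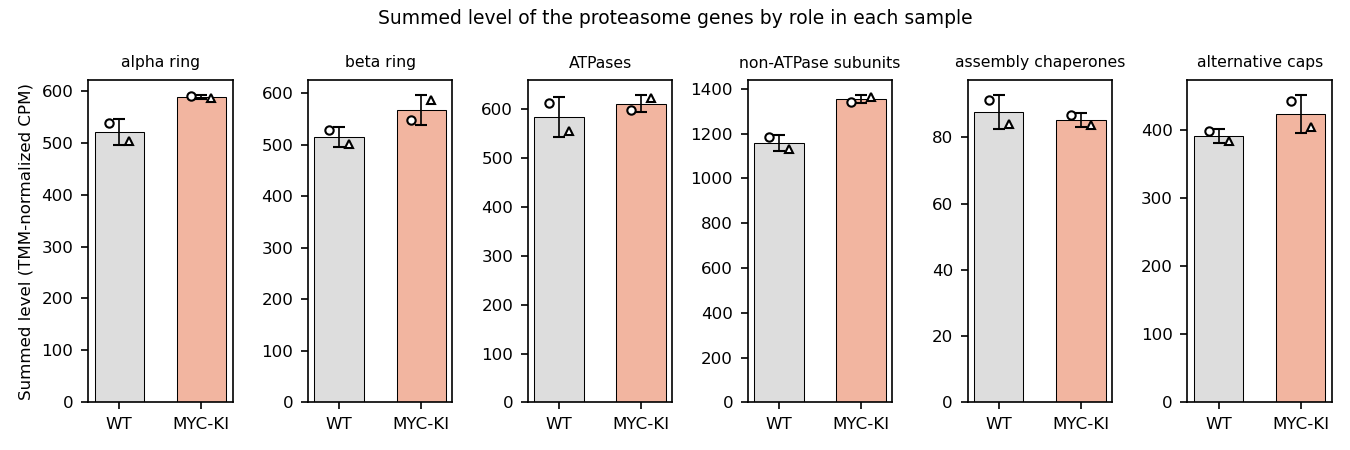
Summed level of the proteasome genes of each role in TMM-normalized CPM, with bars for the mean of 2 samples, error bars of 1 SD, and circles and triangles for replicates 1 and 2. The non-ATPase subunits lie at 1184 and 1132 in WT and at 1340 and 1365 in MYC-KI, and the ATPases overlap, at 612.5 and 555.5 in WT and 599.0 and 623.2 in MYC-KI.

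The summed transcript levels of the regulatory and core particles kept nearly the same ratio, slightly higher in both MYC-KI samples. The amounts of the particles themselves were not measured. The summed level of the ATPases and non-ATPase subunits, divided by that of the alpha and beta rings, was 1.683 and 1.682 in WT and 1.705 and 1.695 in MYC-KI. All 40 members together had 3353 and 3157 CPM in WT and 3606 and 3648 in MYC-KI, a ratio of 1.11.

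In the WT pair most members differed in the same direction, and in the MYC-KI pair they did not. WT replicate 1 was above WT replicate 2 in 31 of 38 members, and WT replicate 2 was the lowest of the 4 samples in 26, while MYC-KI replicates 1 and 2 were the highest in 14 and 13. The matching shares of all tested genes were not taken, so a shift of the whole sample cannot be told apart. WT replicate 2 was also the sample with high *Xist* counts, and the part of sex was not tested. The median ratio of the higher to the lower sample was 1.08 in the WT pair and 1.03 in the MYC-KI pair. Without WT replicate 2 the median log2 fold change of the members was 0.07, and without WT replicate 1 it was 0.18; *Psma2* moved from 0.11 to 0.006 and *Psmb6* from -0.76 to -0.43 without WT replicate 2, neither being called. In 4 members the MYC-KI pair differed by more than 1.2-fold: *Psmb5*, *Psmb6*, *Psme1* and *Psme2*.

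Levels were also taken per kilobase of the transcript with the longest coding sequence, so the order of genes depends on the transcript taken. *Psma3* was taken at 2846 bases and *Psma5* at 1239, and before this division they had 45.2 and 47.9 CPM in WT. Which transcripts the reads came from was not tested. In WT the alpha genes that were tested lay between 15.9 (*Psma3*) and 104.8 CPM per kilobase (*Psma7*), the ATPases between 35.1 (*Psmc6*) and 77.0 (*Psmc5*), and the non-ATPase subunits between 30.8 (*Psmd11*) and 84.5 (*Psmd2*). The chaperones were lower than these, at 7.38 (*Psmd9*) to 13.6 (*Psmd10*). In MYC-KI *Psma3* was again the lowest and *Psma7* the highest of the tested alpha genes, at 16.5 and 115.8.

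Of 39 other genes of the proteasome pathway that were tested, taken from lists, 4 were called, all higher in MYC-KI (10.3%, against 5.65% of all tested genes). Among 5 chaperones of the core particle, *Psmg3*, which pairs with *Psmg4*, had 372 and 356 counts in WT against 750 and 972 in MYC-KI, with a log2 fold change of 0.88 and an edgeR adjusted p of 0.0348. The maturation factor *Pomp* was at 0.07 (edgeR adjusted p of 0.716), and the list had a median of 0.46. *Uchl5*, a deubiquitinase bound to the regulatory particle, was called among 3 genes of its list at 0.59, just past the fold threshold, with an edgeR adjusted p of 0.0381, and DESeq2 and its size factors put it just under, at 0.58 and 0.57. The transcription factor *Nfe2l3*, a relative of the proteasome regulator *Nfe2l1*, was called among 6 regulators at 1.58, with 228 and 171 counts in WT against 699 and 802 in MYC-KI and an edgeR adjusted p of 0.0204.

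*Nfe2l1* itself, which drives proteasome genes when activity is short, had a log2 fold change of -0.19 (edgeR adjusted p of 0.299). *Ubqln4*, which shuttles substrates to the proteasome, was called among 7 shuttles at 0.65 (edgeR adjusted p of 0.0223). Without MYC-KI replicate 1 or 2, *Nfe2l3* and *Ubqln4* stayed called, *Psmg3* was not called without replicate 1 (edgeR adjusted p of 0.0607), and *Uchl5* was called in neither fit (edgeR adjusted p of 0.0612 and 0.0643). Without WT replicate 1 or 2, where no gene was called, the log2 fold changes were 0.78 or 0.98 for *Psmg3*, 0.53 or 0.64 for *Uchl5*, 1.65 or 1.5 for *Nfe2l3* and 0.62 or 0.67 for *Ubqln4*.

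No gene reported from the other lists was called. The subunits with other names, *Adrm1* and *Shfm1*, had log2 fold changes of 0.17 and 0.24, both with MYC-KI above WT, like the non-ATPase subunits they join. The 4 further chaperones and inhibitors that were in the table had a median of -0.05. *Ubb*, which encodes ubiquitin as a chain of repeats, had a log2 fold change of -0.11 (edgeR adjusted p of 0.432).

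The catalytic subunits of the immunoproteasome, which the rule left out, were low or uneven. *Psmb8* had 5 and 2 counts in WT against 4 and 2 in MYC-KI, and *Psmb9* had 1 and 5 in WT and 7 and 0 in MYC-KI, so both failed the filter. *Psmb10* had 925 and 738 counts in WT against 1425 and 1139 in MYC-KI, with a log2 fold change of 0.32 (standard error 0.262) and an edgeR adjusted p of 0.447. Without MYC-KI replicate 2 it was 0.64 with an edgeR adjusted p of 0.0475, and without replicate 1 it was -0.08.

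The parietal, chief and surface mucous markers that were called differed by more than any tested member, and their part in the member values was not tested. All 8 parietal markers were called lower, with summed levels of 12230 and 12500 CPM in WT and 301.3 and 360.6 in MYC-KI, and *Atp4a*, the most abundant, had a log2 fold change of -5.59. Of 5 chief cell markers 4 were lower, with sums of 84850 and 80510 in WT and 1198 and 1518 in MYC-KI, led by *Pgc* (-6.00). All 4 surface mucous markers were lower, with sums of 44890 and 53560 against 10960 and 17190, led by *Gkn2* (-1.88). Set beside these, the summed proteasome level differed by 1.11-fold.

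The 2 mucous neck markers gave no call, with sums of 9863 and 12190 CPM in WT and 19710 and 8667 in MYC-KI, led by *Tff2* (0.53), which without MYC-KI replicate 2 was 1.04 with an edgeR adjusted p of 0.0211, a call. Of 6 proliferation markers 3 were called higher, with sums of 400.1 and 374.9 against 584.2 and 534.1, led by *Mki67* (0.40, called only with library size alone, at 0.62). Of 6 tested leukocyte markers 3 were lower, with sums of 186.1 and 199.9 against 78.6 and 69.4, led by *Lyz2* (-1.60). In each of these last lists the other 3 tested markers were not called.

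The 7 squamous markers had a median log2 fold change of 1.09, all fitted above 0, with *Krt13*, the most abundant, at 0.19. They gave no call, with sums of 1639 and 961.5 CPM in WT and 700.7 and 3033 in MYC-KI. The 6 smooth muscle markers gave none either, with sums of 7640 and 4827 against 2479 and 5270, led by *Myh11* (-0.75). All 3 tested pancreatic acinar markers were lower, with sums of 393.1 and 330.8 against 126.1 and 146.4 and a median log2 fold change of -7.125. *Cela1*, the most abundant, had the smallest change of the 3, -0.76. It was not called with library size alone (edgeR adjusted p of 0.0532) or without MYC-KI replicate 1, where it was -0.654. *Cpa1*, *Amy2a5* and *Prss2* had 0 counts in every sample. The squamous and muscle sums thus differed between replicates of a genotype by more than the members did.

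The members are spread over 16 chromosomes, with 8 on chromosome 11 and 6 on chromosome 14. In the GENCODE annotation of GRCm38, which is mm10, *Psmd7* lies at chr8:107580381-107588464 on the minus strand and *Psma5* at chr3:108256926-108279974 on the plus strand. Members lie within 50 kb of each other in 2 places, both on chromosome 14. *Psme1* (chr14:55578123-55581529, plus strand) and *Psme2* (chr14:55587441-55591113, minus strand) are 5911 bases apart and had like values, -0.12 and -0.18. *Psmb5* (chr14:54614119-54618022, minus strand) and the low-count *Psmb11* (chr14:54621433-54629556, plus strand) are 3410 bases apart and were unlike in level.

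Promoter windows of 300 bases, 250 before to 50 after each start, were taken from RefSeq on GRCm38.p6 and were matched by symbol for 33 of the 40 members, as 36 windows. *Psma8*, *Psmb1*, *Psmb2*, *Psmb7*, *Psmc3*, *Psmd3* and *Psmd7* were not matched. The letters CACGTG, the core bound by MYC with MAX, were in 3 of 36 member windows (8.33%) and in 7.15% of all 32851 windows, on either strand. TGACNNNGC, the core bound by factors of the *Nfe2l1* family, was in 6 (16.7%) against 12.4% of all windows, and CCAAT, bound by NF-Y, in 13 (36.1%) against 37.4%. These shares were near those of all promoters.

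The 3 members with CACGTG were *Psma4* (log2 fold change 0.30), *Psmd9* (0.34) and *Psme3* (0.40), and *Psma5*, whose window was read, held none of the 3 motifs. TGACNNNGC was in *Psmb5* (0.49), *Psmd9* (0.34), *Psmc6* (0.10), *Psmd12* (0.08), *Psme4* (-0.002) and *Psmb6* (-0.76). Its windows thus span the members from near the highest to the lowest, but the low end is *Psmb6* alone, with 40 to 61 counts per sample. The others lay between -0.002 and 0.49. The stretches around the CACGTG matches are printed below with that of *Psmb5*, chosen as the beta gene with the highest fold change. Each is given 5′ to 3′ on the strand of its gene, upstream of the RefSeq start, and capitals mark CACGTG and TGACNNNGC, which do not overlap in *Psmd9*. A match is a description of the letters and not a bound site.
Psmd9: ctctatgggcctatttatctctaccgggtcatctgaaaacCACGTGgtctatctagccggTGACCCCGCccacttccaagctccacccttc
Psma4: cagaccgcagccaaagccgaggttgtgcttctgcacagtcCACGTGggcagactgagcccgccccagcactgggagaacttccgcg
Psme3: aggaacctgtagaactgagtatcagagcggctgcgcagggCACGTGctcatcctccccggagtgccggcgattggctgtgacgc
Psmb5: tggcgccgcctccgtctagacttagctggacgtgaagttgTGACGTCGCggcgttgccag

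On GRCm38.p6 the *Psmd9* stretch is chr5:123228099-123228189 on the plus strand, within introns of a longer *Psmd9* transcript and of *Gm26745* in GENCODE. The *Psma4* stretch is chr9:54950679-54950764 on the plus strand, within the coding exon of *AY074887* on the other strand. The *Psme3* stretch is chr11:101316129-101316212 on the plus strand and the *Psmb5* stretch chr14:54618023-54618082 on the minus strand, both outside annotated genes. In *Psmd9*, *Psma4* and *Psme3* the first base of CACGTG lies at -51, -140 and -44 from the start.

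In the deposited row order the same 40 names gave another picture. All 40 passed the filter, 6 were called higher and 29 lower, and the median log2 fold change was -2.29. Over all 22083 genes tested in that order, 42.7% were called higher and 41.5% lower. DESeq2 called 35 of the 40 in that order, as many as edgeR did. These values belong to the names as printed in the table, and with the character-code order the same MYC-KI counts stand beside names that follow each other from *Rap1a* to *Rasl11b*.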

How the data were processed

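Stomach RNA from 2 WT and 2 MYC-KI samples was used. The authors deposited raw counts for 46095 gene symbols with 1 column per sample, not normalized; their processing notes name HISAT2 and mm10, and the counting tool and its strand setting are not given in the sources used here. The MYC-KI counts were moved, in row order, to the names sorted by character code. The test was the quasi-likelihood test of edgeR 4.0.16 (R 4.3.3, limma 3.58.1) after TMM scaling and filterByExpr, with genotype alone in the model and Benjamini-Hochberg adjustment over all tested genes. A call needed an adjusted p under 0.05 and a change of more than 1.5-fold, the thresholds in the study's methods. Levels are TMM-normalized CPM. Alternatives were DESeq2 1.42.0, its size factors in edgeR, library size alone, no filter, a minimum of 10 counts per sample, a replicate block, no fold threshold, a log2 threshold of 1, and each sample left out. The scripts were tested on simulated data.

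The members, the role groups and the companion and marker lists were chosen with earlier results of these data known. Every member is reported; of the pathway lists, those past both thresholds and *Pomp*, *Adrm1*, *Nfe2l1*, *Ubb*, *Psmb8*, *Psmb9* and *Psmb10*; of each marker list, the most abundant gene. The values of 2 genes of the lists are not reported here. *Psme2b*, *Shfm1*, *Irf1*, *B2m*, *Psmg1*, *Tap1*, *Tap2*, *Rps27a*, *Usp14* and the sex-linked genes were named after their values were seen. Gene positions, lengths and overlaps come from GENCODE on GRCm38, with the transcript of the longest coding sequence for each gene.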

Additional observations from a re-analysis of the deposited data

How the results depend on the processing

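The number of members called was 0 with edgeR, and 0 with DESeq2, the size factors of DESeq2, no filter, a minimum of 10 counts per sample, the replicate block and a log2 fold change threshold of 1. It was 4 with library size alone (*Psma5*, *Psmd3*, *Psmd7* and *Psme3*, among 3011 genes called), 2 with no fold threshold, and 0 to 1 when each sample was left out. The number higher at the adjusted p alone, 2 with edgeR, was 4 with DESeq2 (2105 of all genes), 1 with the size factors of DESeq2 (1145), 14 with library size alone (3128), 4 with no filter (1663), 4 with a minimum of 10 counts (1364), 0 with the replicate block (27), and 0 to 2 with each sample left out. The median log2 fold change, 0.12, was 0.34 with library size alone, where the median of all genes was 0.23, and 0.07 to 0.18 with each sample left out. Samples of the same replicate number did not deviate together over all genes (r = 0.06 across 17643 genes, for replicates 1 of both genotypes). With 2 samples a genotype, this r cannot settle whether the numbers pair the samples. The replicate block left 114 genes called among all. *Psmg3*, *Uchl5*, *Nfe2l3*, *Ubqln4*, *Gkn2* and *Cela1* were not called under it (edgeR adjusted p of 0.0823, 0.085, 0.056, 0.0624, 0.0562 and 0.087).

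With library size alone the median of all genes moved by 0.22, and the sign turned for *Psmb7* (0.12), *Psmc5* (0.19), *Psmd10* (0.21), *Psme1* (0.10), *Psme2* (0.047), *Psme4* (0.22), *Nfe2l1* (0.029) and *Ubb* (0.12). It turned with the size factors of DESeq2 for *Psmc2* (-0.004), with no filter for *Psmd10* (0.005) and *Psme4* (0.011), and with the replicate block for *Krt13* (-0.28). Leaving out each sample turned the sign at an end of these ranges: *Psma6* -0.046 to 0.16, *Psmb1* -0.006 to 0.12, *Psmb2* -0.051 to 0.18, *Psmc2* -0.066 to 0.086, *Psmc3* -0.051 to 0.11, *Psmc5* -0.079 to 0.017, *Psmd10* -0.025 to 0.009, *Psme1* -0.30 to 0.051, *Psme2* -0.37 to 0.001, *Psme4* -0.021 to 0.018, *Pomp* -0.06 to 0.21, *Psmb10* -0.082 to 0.64, *Tff2* -0.26 to 1.04 and *Krt13* -1.65 to 0.97. Leaving out a sample moved further values by more than 1.5 times with the sign kept: without WT replicate 1 *Psma2* (0.219), *Psma3* (0.014), *Psmb7* (-0.06), *Psmc4* (0.242), *Psmc6* (0.163), *Psmd12* (0.124), *Psmd5* (-0.14), *Ubb* (-0.052) and *Myh11* (-0.394); without WT replicate 2 *Psma2* (0.006), *Psma3* (0.093), *Psma7* (0.072), *Psmb3* (0.167), *Psmb6* (-0.427), *Psmc1* (0.072), *Psmc4* (0.075), *Psmc6* (0.028), *Psmd1* (0.065), *Psmd12* (0.03), *Psmd13* (0.067) and *Ubb* (-0.161); without MYC-KI replicate 1 *Psmd2* (0.179), *Nfe2l1* (-0.075) and *Myh11* (-0.266); without MYC-KI replicate 2 *Psmd14* (0.115), *Psmd2* (0.056), *Nfe2l1* (-0.321) and *Myh11* (-1.474). Of 570 values for 57 genes under these settings, 499 kept both their direction and their status as called or not called. Of the rest, 31 lost a call, 8 gained one and 32 turned. Some of the 499 still crossed the threshold on the adjusted p. *Psmd7* went from an edgeR adjusted p of 0.0309 to 0.0761 with the replicate block, and *Psmd3* from 0.0511 to a DESeq2 adjusted p of 0.00402. The causes were not tested.

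With 2 samples a genotype, leaving 1 out leaves a lone sample that is assumed to vary like the other genotype, and without either WT replicate no gene was called. *Psmb6*, with 40 to 61 counts per sample, had the widest standard error of the members, 0.424.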

Other observations

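A few genes of the pathway had far fewer reads than the other tested members. *Psmb6* had 40 to 61 counts per sample, *Psmg1*, a chaperone of the core particle, had 12 and 18 in WT and 12 and 41 in MYC-KI, and *Tap1* and *Tap2*, which form a peptide transporter, had 24 and 14 in WT and 18 and 6 in MYC-KI, and 22 and 8 in WT and 26 and 30 in MYC-KI. Exons of other genes lie over 14.7% of the exon bases of *Psmb8*, 5.79% of *Psmb9*, 3.87% of *Tap1*, 18.5% of *Tap2* and none of *Psmb6* or *Psmg1*. The low rows were low in both genotypes, and why was not tested.

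*Rps27a*, which encodes ubiquitin fused to a ribosomal protein, had 414 and 483 counts in WT against 1386 and 1015 in MYC-KI, with a log2 fold change of 1.10 and a standard error of 0.351 (edgeR adjusted p of 0.11). *Usp14*, which like *Uchl5* removes ubiquitin at the regulatory particle, had 70.8 CPM in WT and 92.9 in MYC-KI, with a log2 fold change of 0.39 (edgeR adjusted p of 0.0522). Neither gene passed the test, and both were picked after their values were seen.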
